A study of Homo sapiens with 8 samples.

Results

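The gene-end regions described here belong to 7 protein-coding genes, MPHOSPH8, KAT2A, PRMT6, ATP6V1A, KATNAL2, UBR4 and PLCXD2, in HEK293T cells, an established human embryonic kidney line. They were picked from the data as strong regions that had a peak in both control lists and in neither vitamin C list, so the difference between conditions at these regions is given as a description and is not tested. They are 7 of 1385 genes with that pattern, out of 4638 whose ends carry a peak in both controls and 19974 protein-coding genes on chromosomes 1 to 22 and X. The assay was KAS-seq, in which N3-kethoxal tags unpaired guanines in living cells and the tagged DNA is enriched and sequenced. Untreated cells and cells given 0.5 mM vitamin C for 10 min were each labelled with 5 mM N3-kethoxal for 10 min, with 2 labelled libraries per condition. The 4 input libraries of the series were not analysed here. Sample titles and the field for the cell line differed, the latter with a changing number after HEK, and the titles, which all name HEK293T, were followed.

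DNA is single-stranded where RNA polymerase has melted it, and KAS-seq signal gathers over promoters with engaged or paused polymerase, along transcribed bodies and past the ends of active genes. Many human promoters fire in both directions, so that signal close to the start of a gene can come from a divergent partner. Vitamin C is a reducing agent and a cofactor of the iron-dependent dioxygenases that demethylate histones and DNA. The 7 genes have different roles: MPHOSPH8, KAT2A and PRMT6 encode chromatin proteins, ATP6V1A a subunit of the vacuolar proton pump, KATNAL2 a katanin-like protein, UBR4 a ubiquitin ligase, and PLCXD2 a protein with a phospholipase C-like domain.

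The lists held 30351 and 24111 peaks in control replicates 1 and 2, and 9816 and 9896 in vitamin C replicates 1 and 2. The genome-wide background solved from the peak statistics, a measure of depth, was 0.817 (control 1), 0.849 (control 2), 1.22 (vitamin C 1) and 0.871 (vitamin C 2) fragments at a position. Of 9 genes listed as active in HEK293T, VIM and HNRNPA1 had a gene-end peak, in all 4 libraries. The other 7 of that list, among them KRT8, KRT18 and PAX2, and the 10 genes listed for other tissues had none in any library. A gene end here is 1 kb to each side of either annotated end of the RefSeq gene, and a gene is called lost if a peak of both controls and no vitamin C peak reaches such a window. Over all 4638 genes, 29.9% were lost, and 27.3% were lost at the whole region, meaning that no vitamin C peak met any control peak reaching the window. All 7 genes met both rules, as their choice required. Fewer cells with an opened region and less opening per cell cannot be told apart in such data.

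The RefSeq promoter table (GRCh38.p14) held 5 of the 7 genes, and ATP6V1A and PLCXD2 were not among them. The 250 bases before the start are shown for the genes where the control peaks share at least 20 of those bases. They show the promoters at the edge of the lost regions and hold only the part of each region that falls in this stretch. NAA50 stands beside ATP6V1A, since the region lies between these genes. Each sequence runs 5′ to 3′ on the strand of the named gene, and capitals mark the bases that lie inside the peaks of both controls. They come from chr13:19633409-19633658 (plus strand), chr17:42121368-42121617 (minus), chr1:107056424-107056673 (plus) and chr3:113746250-113746499 (minus).
MPHOSPH8: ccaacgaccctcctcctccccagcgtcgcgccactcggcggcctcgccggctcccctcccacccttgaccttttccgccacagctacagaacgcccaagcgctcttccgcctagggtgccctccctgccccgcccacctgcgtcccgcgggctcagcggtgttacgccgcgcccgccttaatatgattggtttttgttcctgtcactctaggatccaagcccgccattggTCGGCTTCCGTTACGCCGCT
KAT2A: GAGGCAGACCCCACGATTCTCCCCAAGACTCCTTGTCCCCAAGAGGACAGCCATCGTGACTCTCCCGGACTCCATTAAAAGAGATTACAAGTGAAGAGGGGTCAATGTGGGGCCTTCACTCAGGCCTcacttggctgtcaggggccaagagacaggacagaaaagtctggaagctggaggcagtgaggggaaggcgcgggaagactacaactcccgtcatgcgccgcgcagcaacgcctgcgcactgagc
PRMT6: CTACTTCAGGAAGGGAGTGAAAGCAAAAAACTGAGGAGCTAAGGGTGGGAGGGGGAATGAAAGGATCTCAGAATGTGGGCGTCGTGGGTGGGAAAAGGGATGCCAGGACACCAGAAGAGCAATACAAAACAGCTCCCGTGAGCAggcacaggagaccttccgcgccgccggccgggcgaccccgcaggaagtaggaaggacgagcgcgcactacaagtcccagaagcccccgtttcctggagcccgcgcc
NAA50: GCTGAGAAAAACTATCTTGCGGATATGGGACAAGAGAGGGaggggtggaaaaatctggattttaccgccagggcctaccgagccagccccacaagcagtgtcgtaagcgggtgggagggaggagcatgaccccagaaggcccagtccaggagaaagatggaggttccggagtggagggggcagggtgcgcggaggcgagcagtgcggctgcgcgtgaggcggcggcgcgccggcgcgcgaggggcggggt

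At KAT2A, PRMT6 and NAA50 the capitals lie in the part of the stretch far from the start, and at MPHOSPH8 they are the last 20 bases before it. The lost region, which joins the peaks of both controls, covers 130 of the 250 bases at KAT2A, 150 at PRMT6, 154 at NAA50 and 43 at MPHOSPH8. In both controls the summits at MPHOSPH8, KAT2A and NAA50 lie outside the printed bases. At PRMT6 the controls differ: the summit 214 bp upstream of the start lies inside the printed bases, and the summit 273 bp upstream lies outside them. At PRMT6 the 144 bases inside the peaks were 52.1% G and C and held 3 CpG, against 71.7% in the 106 bases nearer the start. On the strand of the named gene, the capitals hold 52 guanines and 23 cytosines at PRMT6 and 14 and 5 at NAA50. Guanines were fewer than cytosines at KAT2A, 31 and 39, and at MPHOSPH8, 5 and 8. At KAT2A the 127 bases inside were 55.1% G and C and the 123 outside 62.6%. At NAA50 the values were 47.5% over 40 bases and 69.0% over the other 210. Over the whole lost region in place of the shared part, the values in and out of it were 55.4% and 62.5% at KAT2A, 52.7% and 72% at PRMT6, and 57.1% and 79.2% at NAA50. In these 3 printed stretches the less GC-rich part lay inside the control peaks by either measure, which is a description of the printed letters. The 250 bases before the annotated gene start of the 5 genes in the table ranged from 58.8% G and C at KAT2A to 78% at KATNAL2. Further starts listed for KATNAL2 were left out of this range, and their stretches ran from 48.4% to 80.4%. The median was 62.4% over 13793 promoters of protein-coding genes, 64.4% over the lost genes and 62.8% over the genes kept in both vitamin C lists.

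Short motifs were searched on both strands of the same 250 bases, at KATNAL2 those before its annotated gene start. Further starts of KATNAL2 are not counted below. The stretches before those deeper in the gene hold CCAAT and, on the other strand, TTCCGG, and the stretch before a nearby start lacks TATAAA. The GC box GGGCGG was in 3 of the 5 promoters (MPHOSPH8, KATNAL2 and UBR4) and in 56.0% of all promoters. CCAAT occurred 2 times at MPHOSPH8 and in no other of the 5, against 35.2% of all promoters. TATAAA and CACGTG were found at KATNAL2 alone, against 9.64% and 7.87%, and TTCCGG and AAGATGGC at none, against 19.5% and 1.44%. ACTACAA, added to the list after the sequences had been read, was in the KAT2A and PRMT6 promoters and in 2.91% of all promoters. In both it lies outside the capitals, between the lost region and the start. Overlaps between motifs were not resolved, and none of these matches shows that a factor was bound.

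MPHOSPH8 (chromosome 13, 19633659 to 19673441, plus strand) encodes M-phase phosphoprotein 8, a chromodomain reader of methylated histone H3 lysine 9 and a part of the HUSH silencing complex. Its start carried a peak from 19633616 to 19633933 in control 1 and from 19633639 to 19633893 in control 2, and none with vitamin C. The summits lay 128 and 162 bp downstream of the start, over 22 and 19 fragments. Both controls were high and close to each other here, at percentiles 93.9 and 91.0 of the authors' fold within their own lists. Control 1 also had a peak in the gene body with its summit 30712 bp from the start, at percentile 51.9, and one past the gene at percentile 48.8. Control 2 had neither and had another at the far end, at percentile 47.8, inside the overlapping gene PSPC1. So the weaker peaks differed between the controls, and no vitamin C peak lay within 5 kb of the gene. The nearest was 53574 bp from the lost region in both vitamin C libraries, inside PSPC1, which encodes a paraspeckle protein.

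KAT2A (chromosome 17, 42113111 to 42121367, minus strand) encodes the histone acetyltransferase GCN5 of the SAGA and ATAC complexes. Its lost region, 42121488 to 42122117, lay wholly upstream of the start, beginning 121 bp from it. The summits were 271 and 266 bp upstream, over 23 fragments in control 1 and 17 in control 2, and no vitamin C peak was there. The percentiles were 94.6 and 87.8, so the region was stronger in control 1. The region ends 687 bp before HSPB9, a small heat shock protein gene of the plus strand, and its window counts for both genes.

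Behind HSPB9, at 42123367 to 42123689 and 42124044 to 42124906, both controls had further peaks, at percentiles 34.5 and 60.0 in control 1 and 41.4 for each in control 2. Both reach the window at the end of HSPB9, and the second also reaches that at the end of RAB5C, a small GTPase gene of endosomes. Control 1 alone had peaks inside KAT2A, at percentiles 46.2 and 5.62. None of these was met with vitamin C. The nearest vitamin C peaks were 94505 and 94627 bp from the lost region, at NKIRAS2 and ZNF385C. KAT2A had the most control peaks of the 7 genes, 5 and 3, and all were absent from both vitamin C lists.

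PRMT6 (chromosome 1, 107056674 to 107059294, plus strand) encodes the arginine methyltransferase that deposits asymmetric dimethylation at histone H3 arginine 2. The lost region, 107056303 to 107056573, was nearly the same in both controls, with peaks 269 and 265 bp wide that shared 263 bp. The summits were 214 and 273 bp upstream of the start, over 20 and 21 fragments and at percentiles 92.1 and 87.3. Control 2 also had a peak past the other end of the gene, over 17 fragments against a higher local background of 1.91, at percentile 53.3. No other gene is annotated within 5 kb. PRMT6 stood in a stretch with few peaks: within 50 kb of the lost region there was 1 peak in control 1 and 2 in control 2, and the nearest vitamin C peaks were 1583284 and 1635328 bp away.

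**Figure D1:**
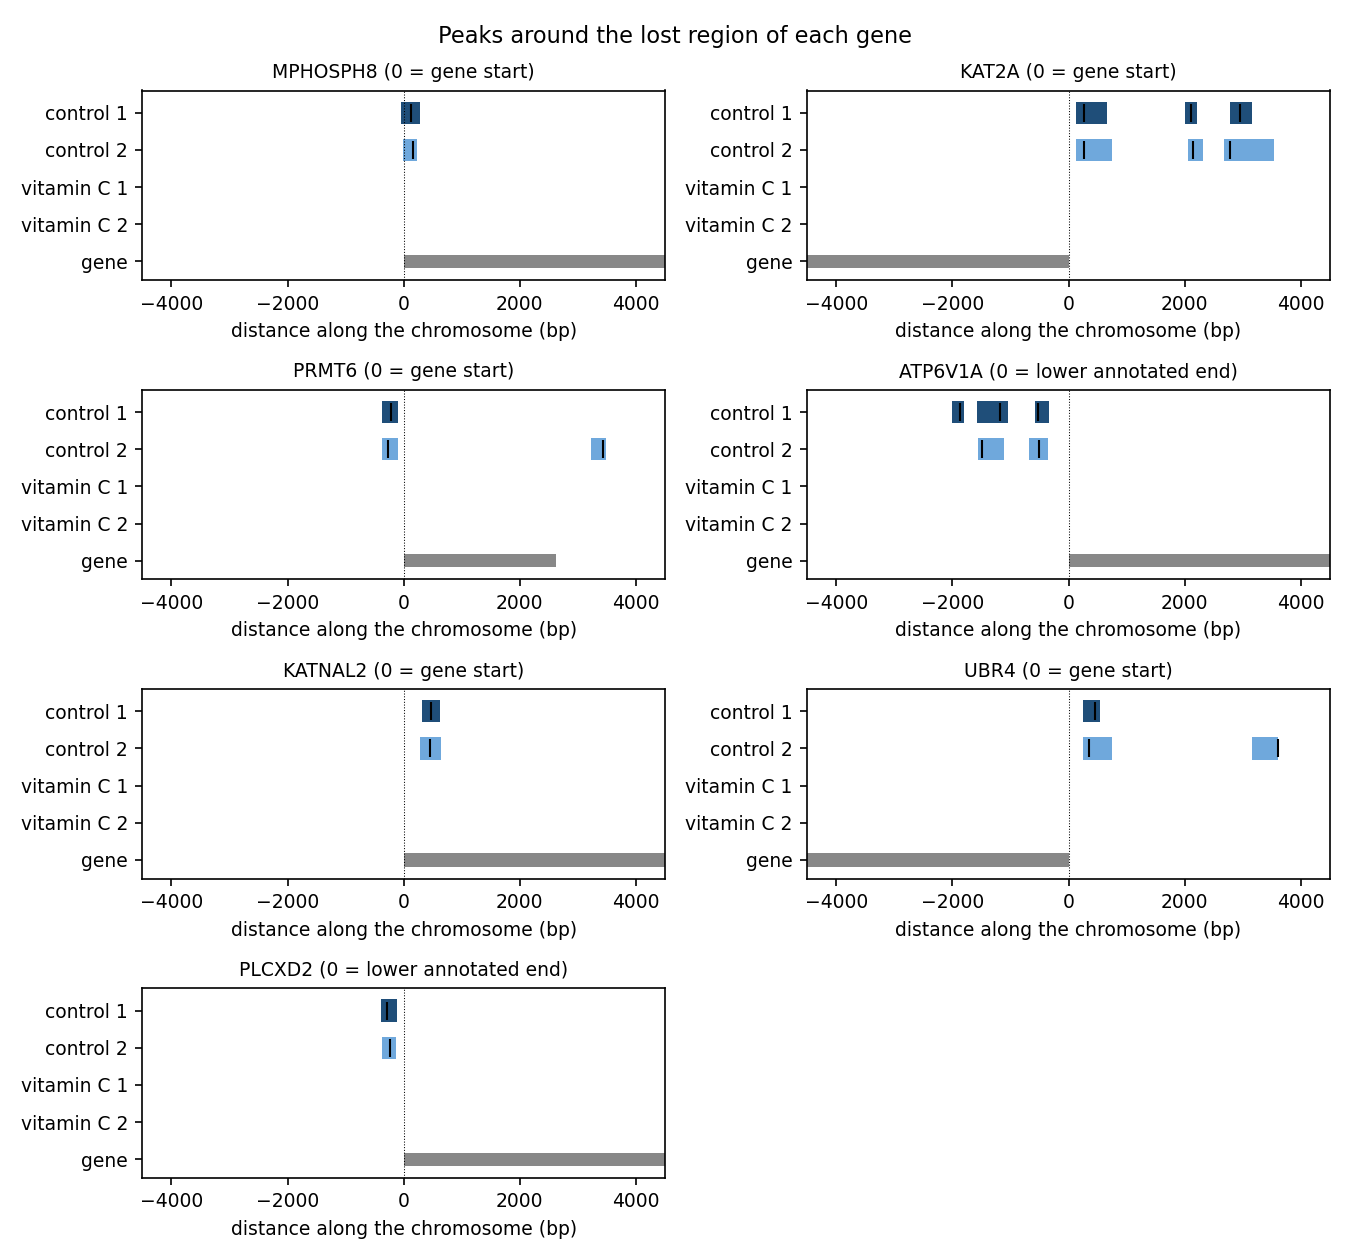
Peaks within 4.5 kb of each lost region, one row per library, with the gene as a grey bar and peak summits as black ticks. The x axis is the distance in bp along the chromosome from the gene end beside the region, which is the gene start where the promoter table gives it. Control peaks stand at every gene and the vitamin C rows are empty in all 7 panels.

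ATP6V1A (chromosome 3, 113747035 to 113812056) encodes the catalytic A subunit of the V-ATPase, which acidifies lysosomes and other compartments. Its lost region, 113746346 to 113746693, lies between it and NAA50, an N-terminal acetyltransferase gene of the minus strand, 97 bp from NAA50 and 342 bp from ATP6V1A. The summits, 519 and 511 bp before the lower end of ATP6V1A, stood over 20 fragments in control 1 and 24 in control 2, at percentiles 90.6 and 91.4. Signal there cannot be assigned to one of these genes.

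A second region, 113745456 to 113745990, lies inside NAA50 and was also found in both controls, at percentiles 83.6 and 45.0, and in neither vitamin C list. Control 1 alone had a peak beside it at percentile 31.1. Past the other end of ATP6V1A a peak did stay: vitamin C 2 had one from 113813261 to 113813618 and control 1 one from 113813264 to 113813620. Both stood over 10 fragments, against a background of 0.871 in vitamin C 2 and 1.56 in control 1, at percentiles 42.6 and 12.6. Control 2 and vitamin C 1 had none there, so this region was found in 1 library of each condition. ATP6V1A was also the gene with the most vitamin C peaks around it, 5 and 3 within 50 kb of the lost region against 10 and 11 in the controls. The nearest lay 28285 and 25120 bp away, at NAA50.

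KATNAL2 (chromosome 18, 46917594 to 47102243, plus strand) encodes a relative of the microtubule-severing ATPase katanin. It is the longest of the 7 genes, 184650 bp, and it had 1 peak in each control and none with vitamin C. The peaks covered 46917918 to 46918221 in control 1 and 46917876 to 46918231 in control 2, with summits 470 and 458 bp downstream of the start. They stood over 19 fragments in control 1 and 29 in control 2, where the local background was also higher, 1.91 against 0.817, and the percentiles were 91.0 and 89.8. The region also lies inside PIAS2, a SUMO ligase gene of the minus strand, 1914 bp from its start. The nearest vitamin C peaks were 115640 and 232494 bp away, at PIAS2 in vitamin C 1 and at HDHD2 in vitamin C 2.

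UBR4 (chromosome 1, 19074510 to 19210266, minus strand) encodes a very large ubiquitin ligase of the N-degron pathway. The lost region, 19210508 to 19211006, begins 242 bp upstream of its start and lies inside EMC1-AS1, a lncRNA gene of the opposite strand that starts 122 bp before the region. The summits were 450 and 355 bp upstream of the UBR4 start, over 19 and 18 fragments and at percentiles 91.0 and 89.4. Of the controls' 4 other peaks along UBR4, 2 in each, no 2 overlapped, and their percentiles ranged from 3.62 to 48.8. The weaker signal of this gene thus was not found again in the other control. Vitamin C 2 had its nearest peak 13926 bp from the lost region, at EMC1 and EMC1-AS1, and vitamin C 1 at 50431 bp.

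PLCXD2 (chromosome 3, 111674676 to 111727007) encodes a protein with the X domain of phosphatidylinositol-specific phospholipase C. It had 1 peak in each control, 111674281 to 111674553 in control 1 and 111674306 to 111674549 in control 2, and none with vitamin C. The summits lay 295 and 227 bp outside the lower end of the gene, over 21 and 26 fragments and at percentiles 93.0 and 86.2. The region lies 1713 bp from the antisense gene PLCXD2-AS1, which had no gene-end peak of its own in any library. No further peak lay within 50 kb in any library, and the nearest vitamin C peaks were 311278 and 303830 bp away, at ABHD10. With KATNAL2, it is one of the 2 genes where the lost region was all that the controls had.

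**Figure D2:**
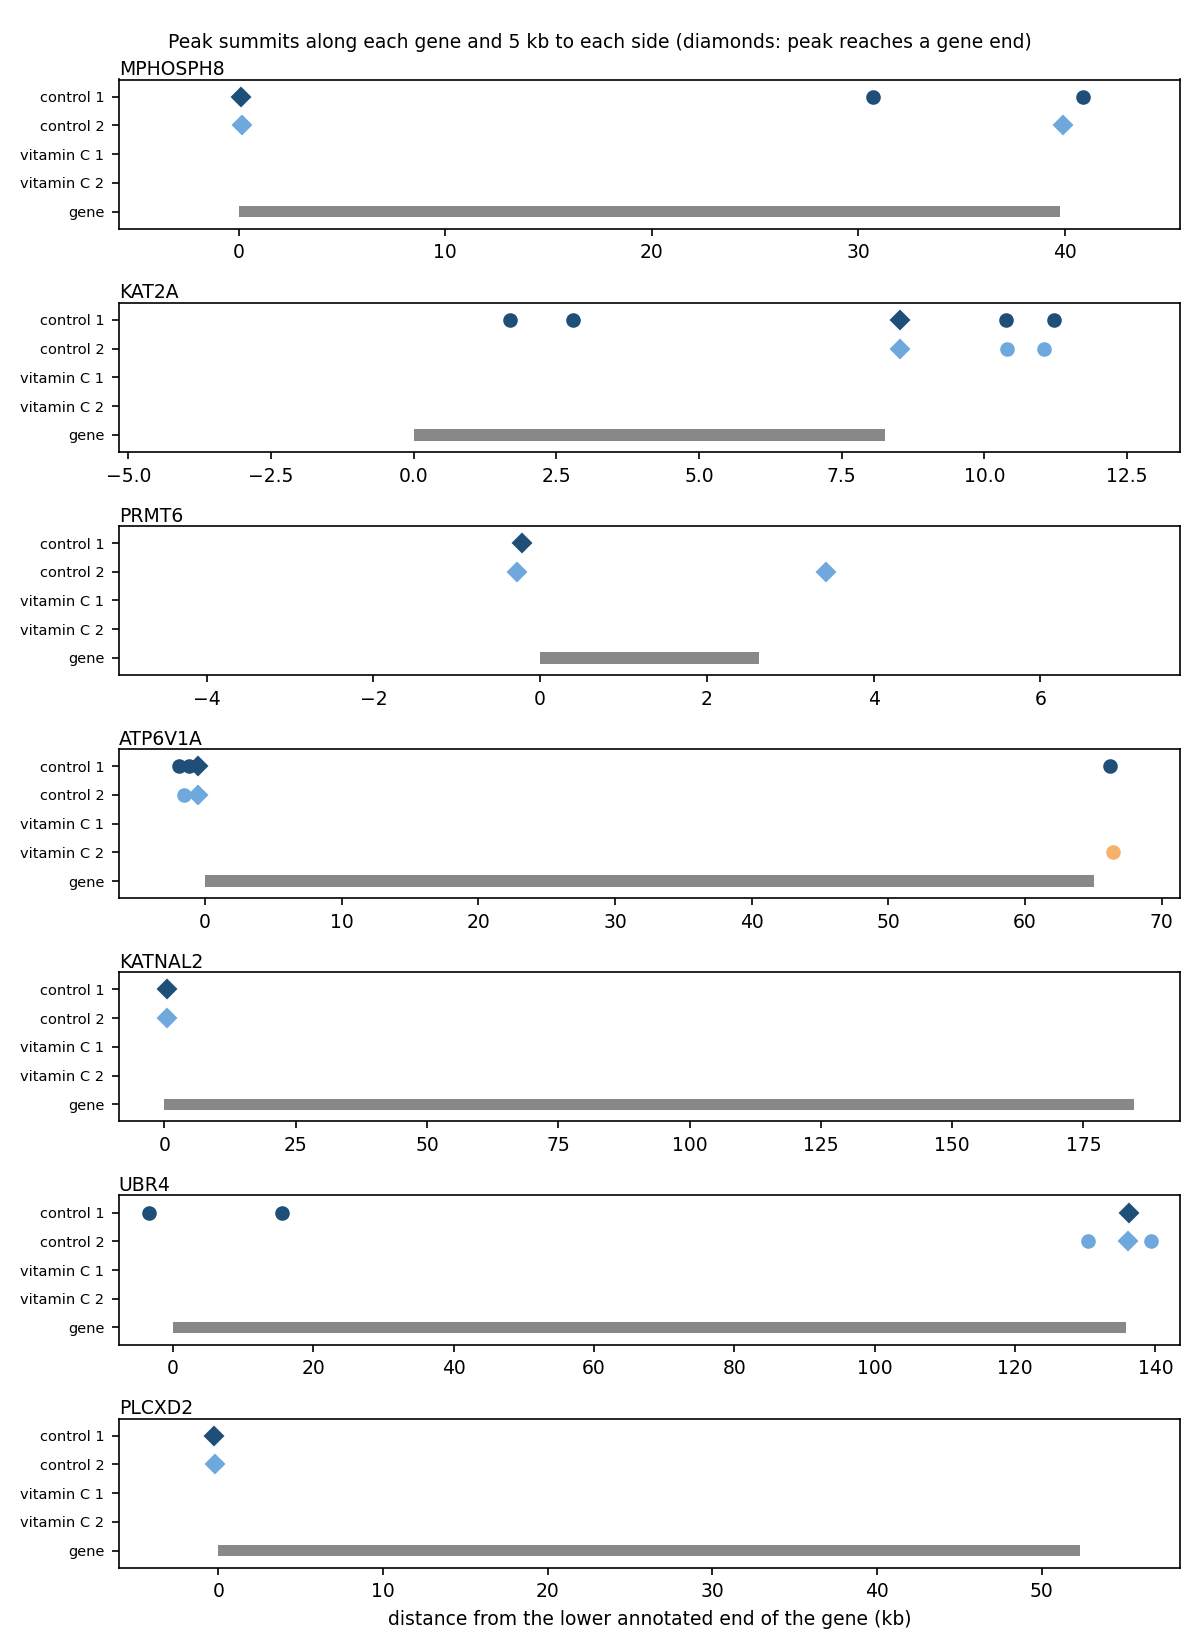
Peak summits along each gene and 5 kb to each side, one row per library, against the distance in kb from the lower annotated end; the grey bar is the gene and diamonds are peaks that reach a gene end. The strongest peaks of both controls line up at 1 end of each gene, the others mostly do not, and the only vitamin C summit is past the upper end of ATP6V1A.

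Little else was found along these genes with vitamin C. Over the 7 genes widened by 5 kb, 558 kb in all, control 1 had 18 peaks, control 2 had 14, vitamin C 1 had 0 and vitamin C 2 had 1. The groups did not overlap, as the choice of the genes makes likely, and the lengths of the whole lists did not overlap either. Vitamin C peaks were 1 of 33 (3.03%) over these genes and 19712 of 74174 (26.6%) over the whole lists. The peaks covered 5704 and 5581 bp in the controls and 0 and 358 bp with vitamin C. The control mean was 16 ± 2.83 peaks over 5643 ± 87.0 bp, and the vitamin C mean 0.5 ± 0.707 peaks over 179 ± 253 bp (SD, n = 2 libraries per condition). Whether the replicates were separate cultures is not stated in the labels, so these spreads may be technical.

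Away from the ends of these 7 genes the controls had 11 and 5 peaks. Among them 3 regions were found in both controls: the 2 behind HSPB9 and the one inside NAA50. All 3 reach within 1 kb of an end of a neighbouring gene, HSPB9 or NAA50. None of the 3 was met in either vitamin C list. With only 3 regions the 95% Clopper-Pearson interval for the share met in both lists, which covers counting error only, reaches 70.8%. Over all regions found in both controls, 33.1% of 15176 were met in both vitamin C lists and 42.0% in neither. Along the 1261 other genes lost at the whole region, 29.7% of 1436 further regions were met in both (95% Clopper-Pearson interval 27.4 to 32.2) and 44.2% in neither. Of these 1261 genes, 614 (48.7%) had no vitamin C peak anywhere within 5 kb, as was so for 6 of the 7 genes. Genes differ in length and in their number of control peaks, and no test of this difference was made.

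The lost regions were strong but not among the very strongest. In control 1 they stood over 19 to 23 fragments (median 20), and in control 2 over 17 to 29 (median 21). The median peak of these lists stood over 13 and 14 fragments. Their ranks by the authors' fold were 1618 to 2857 in control 1 and 2049 to 3305 in control 2. Their background was near the genome-wide one in control 1, 0.817 to 0.916 fragments, and up to 1.91 in control 2. Where the background was at the genome-wide level, the lowest pileup called in a vitamin C list was 10 fragments in vitamin C 1 and 7 in vitamin C 2. Both vitamin C lists were also shorter than the control lists, and the part of the calling limit or of depth in the absence of these peaks was not tested. The lists give no value where no peak was called, so an absent peak leaves room for weaker signal.

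**Figure D3:**
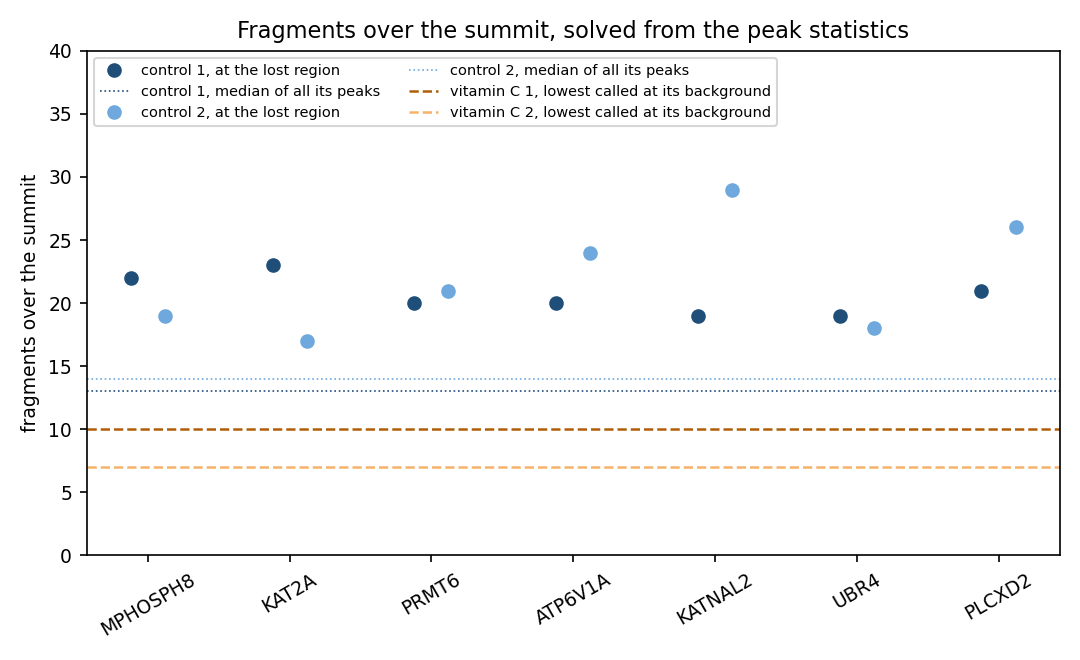
Labelled fragments over the summit of the lost region in control 1 and control 2 (points), the median over all peaks of each control (dotted lines) and the lowest pileup called at the genome-wide background in each vitamin C list (dashed lines). The points, 17 to 29 fragments, lie above all 4 lines. Libraries differ in depth. In control 2 the local background of the points reached 1.91 fragments, above the level at which the dashed lines were taken.

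In shape the regions were compact, and the controls placed them alike. The peaks were 234 to 533 bp wide in control 1 (median 290, against 361 for its whole list) and 244 to 630 bp in control 2 (median 339, against 379). The control peaks shared between 225 and 533 bp, which was at least 96.2% of the narrower peak at each gene. The summits were 5 bp apart at KAT2A and 8 bp at ATP6V1A, up to 95 bp at UBR4. At each of the 5 genes in the promoter table the region was at the start. Among the other lost genes in the table the strongest control 1 peak was at the start for 579 of 1005 (57.6%), and among the kept genes for 891 of 1672 (53.3%). In 3 of the 5 the control 1 summit was upstream of the start, against 50.9% of the lost genes with a peak at the start and 47.9% of the kept ones. The only RefSeq genes that any of the 7 regions overlapped were MPHOSPH8, KATNAL2 with PIAS2, and EMC1-AS1.

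Most genes with control peaks of the same strength had a gene-end peak in both vitamin C lists, and such genes are called kept. That peak can lie at either end of the gene and need not meet the control peak. The strength of a gene in the controls is taken as the percentile of its best gene-end peak, averaged over control 1 and control 2, and the 7 genes ranged from 89.6 at PLCXD2 to 92.5 at MPHOSPH8. In that range lay 274 genes, of which 217 (79.2%) had a gene-end peak in both vitamin C lists and 42 (15.3%) in 1. Lost genes were 15, or 5.47%, and 9 of these were lost at the whole region. The 7 genes and the 2 others, HSPB9 and EIF4E, make up these 9.

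**Figure D4:**
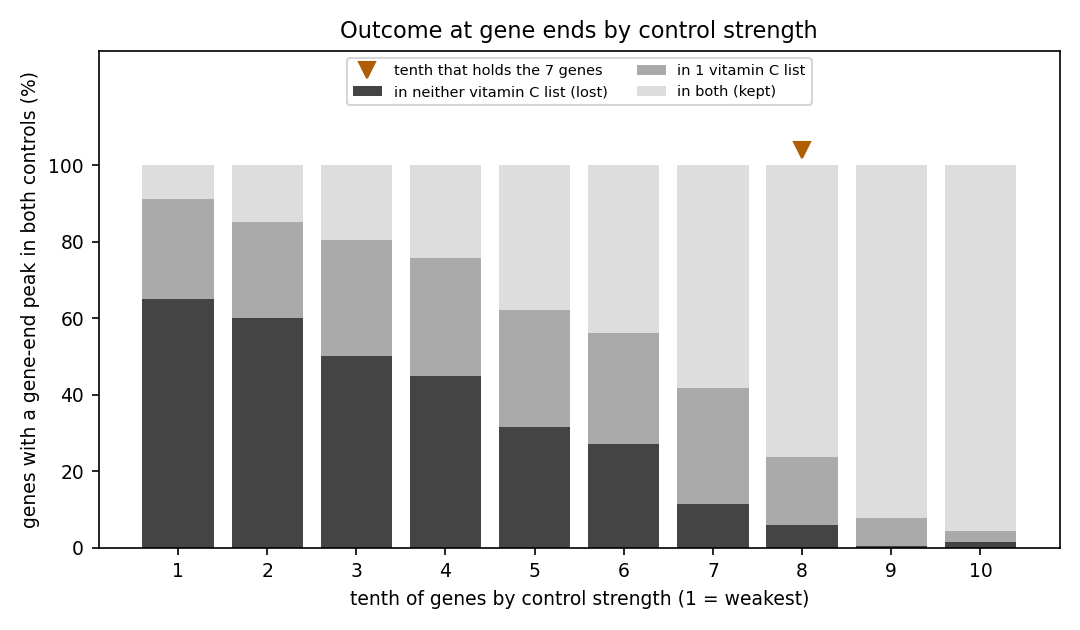
For genes whose ends carry a peak in each control, the share with one in neither, 1 or both vitamin C lists (stacked bars, %), in 10 equal bins of control strength from weakest to strongest. The triangle marks bin 8, which holds all 7 genes and where 6.03% were lost.

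Ordered by control strength, the genes lost at the whole region begin with NDUFA11, a respiratory complex I gene, at 95.1. MPHOSPH8 follows, then KAT2A with HSPB9 at 91.2, ATP6V1A at 91.0, KATNAL2 at 90.4, EIF4E, the cap-binding protein gene, at 90.4, UBR4 at 90.2, PRMT6 at 89.7 and PLCXD2 at 89.6. Just below are DDX52, an RNA helicase gene, and SYNRG, a gene of clathrin-linked traffic, which share a peak at 89.0. MTFMT, a mitochondrial tRNA formyltransferase gene, DRC5, a gene of the dynein regulatory complex of cilia, and CWC22, a splicing factor gene, follow at 88.7, 88.7 and 88.5. The step from PLCXD2 to DDX52, the nearest gene outside the choice, is small.

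Relatives of the 7 genes did not share one outcome. Lists of complexes and families, chosen with earlier results of these data known, held 72 other genes, of which 27 carried a peak at an end in control 1 and control 2 alike. Of these, 8 were lost (29.6%, 95% Clopper-Pearson interval 13.8 to 50.2), 9 had a peak in 1 vitamin C list and 10 in both. The share lost is near the 29.9% of all genes, and no list was tested.

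Beside MPHOSPH8, the HUSH subunits TASOR and PPHLN1 and the partner methyltransferase SETDB1 each carried such a peak in the 2 controls and in 1 vitamin C list. Their control strengths were 39.4, 88.1 and 83.7. TASOR had its peak in vitamin C 1, and PPHLN1 and SETDB1 in vitamin C 2.

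Beside KAT2A, 12 other SAGA and ATAC genes could be followed, having one in each control. The 5 kept ones were the adaptors TADA1 and TADA2B, the deubiquitinase USP22, its partner ATXN7 and the ATAC subunit ZZZ3, at control strengths from 75.0 (ATXN7) to 93.7 (ZZZ3). SUPT3H, TAF6L and ENY2 had a peak in 1 vitamin C list. TAF5L, ATXN7L3, MBIP and DR1 were lost, with weaker control peaks of strength 37.3, 65.6, 76.1 and 80.8. KAT2A at 91.2 had the strongest control peak of the lost genes of this list, as its choice for a strong lost region makes likely. TADA2B, with a strength of 92.1, was kept.

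Among the arginine methyltransferases, PRMT5, PRMT1 and CARM1 had gene-end peaks in both vitamin C lists, at control strengths of 98.6, 92.8 and 86.2. PRMT9 and the PRMT5 partner WDR77 were lost, at 30.5 and 80.4. PRMT6, at 89.7, lay between CARM1 and PRMT1 in strength, both of which were kept.

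Of the V-ATPase genes, the V1 subunit gene ATP6V1G1 and the membrane subunit gene ATP6V0B were kept, at 92.9 and 92.1, just above ATP6V1A. ATP6V1C1 and ATP6V1E1 had a peak in 1 vitamin C list, and ATP6V1F and ATP6V0E2 were lost. ATP6V1F was not lost at the whole region: a control peak there was met by vitamin C signal beyond 1 kb from the gene end. Of the UBR box genes UBR3 had a peak in both controls and in vitamin C 1, at a strength of 34.0. No other katanin and no other PLCXD gene had one in each control.

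**Figure D5:**
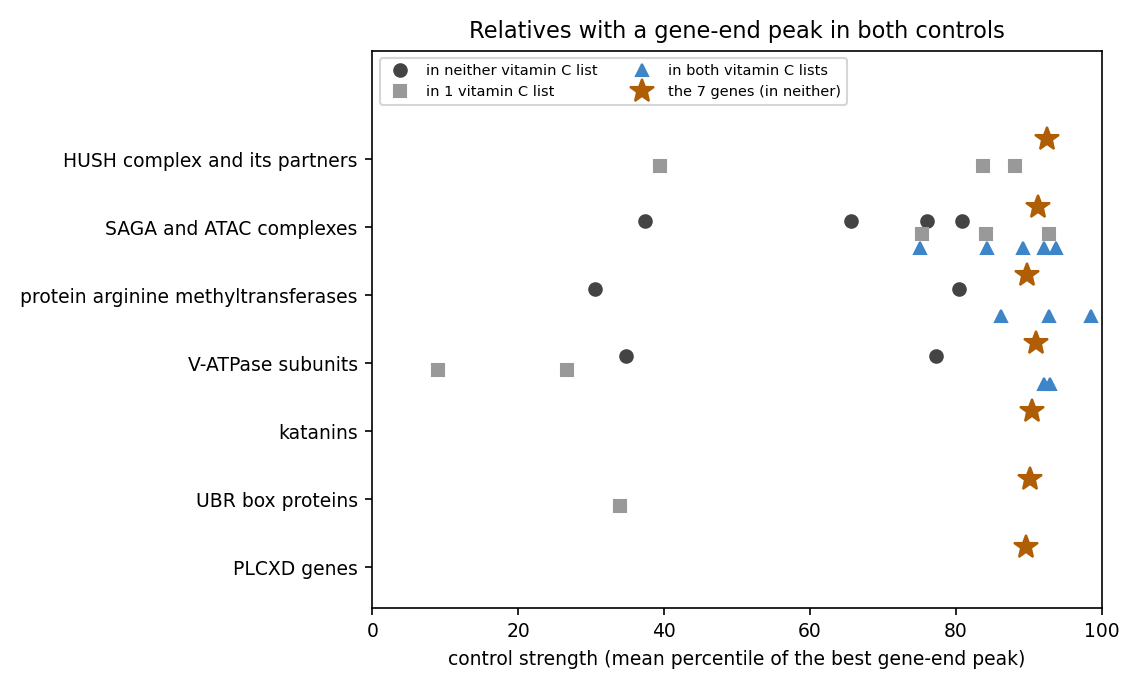
Control strength (x axis, mean percentile) by list (y axis), for listed genes whose ends carry a peak in each control; marker shapes give whether the gene had one in neither, 1 or both vitamin C lists, and stars are the 7 genes. Markers are shifted vertically within a list for legibility. Kept genes stand close to the stars in 3 lists: SAGA and ATAC, arginine methyltransferases and V-ATPase.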

How the data were processed

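KAS-seq peak lists of 4 labelled libraries, 2 control and 2 vitamin C, were used, 1 list per library. The submitters' processing notes name the build hg38, MACS2 2.2.7.1, Bowtie2 2.4.5, and bcl2fastq 2.19, cutadapt, Trim Galore and deepTools. Further settings were not given in the sources used here. Per the deposited narrowPeak layout, each peak has positions, a summit, the authors' fold enrichment (a linear ratio), the authors' −log10 p and −log10 q, and an authors' score, which was not used. The fold belongs to a peak and was ranked only among the peaks of 1 list.

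Only chromosomes 1 to 22 and X were used. Genes came from a RefSeq table of GRCh38.p14. An overlap was 1 bp or more. Fragments and local background at each summit were solved from fold and p, taking MACS2's formulas with whole fragments; 100% of peaks were solved within 0.005 in −log10 p, with the labelled pileup of vitamin C 1 scaled by 0.776. The calls were tested on made-up lists with known answers. Regions were merged control peaks with a peak of each control.

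The 7 genes, the lists of relatives and the named genes (the 7 genes, genes at the same peaks, genes ranked among them and the 5 after, and relatives with a peak in both controls) were chosen with earlier results of these data known. No test was made between conditions. The nearest peaks, the 50 kb counts, the base composition and the motifs were added after the data were seen. Python 3.11.15, numpy 2.4.6, pandas 2.3.3 and scipy 1.17.1 were used.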

Additional observations from a re-analysis of the deposited data

How the results depend on the processing

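All 7 genes were lost under each alternative run except the gene-end window of 2 kb, which gave 6, since the vitamin C 2 peak past ATP6V1A then counts. Leaving out each library gave 7 by construction, and the choice also required loss at the whole region. A narrower window, summits in place of whole peaks, and stricter lists can only take peaks away. No vitamin C peak could appear in those runs, and only a dropped control peak could have changed the count. The log2 ratio of peaks over the 7 widened genes (vitamin C over control) was -5 and that of covered length -4.98, and both rest on 1 vitamin C peak. The whole lists were also shorter with vitamin C, which gave 26.6% of all their peaks and 3.03% of those over these genes. Part of both ratios follows from the choice of genes with no vitamin C peak at their ends. In lists of equal length they were -4 and -3.97, and at −log10 q of at least 5 they were -4.70 and -4.69; both thresholds remove control peaks, leaving 8 and 8, and 14 and 12, with the same 0 and 1 of vitamin C. Genes widened by 10 kb gave -5.11 for covered length. Without vitamin C replicate 1 the ratios were -4 and -3.98, and over the libraries left out they ranged from -5.17 to -4 and from -4.99 to -3.98. No ratio could be had for genes not widened or without vitamin C replicate 2, where no vitamin C peak is left. On the log2 scale no paired analysis was possible because vitamin C replicate 1 has no peak over these genes; paired by replicate number, control minus vitamin C was 18 and 13 peaks, and 5704 and 5223 bp, with no test made. The share of other regions kept was 0 under each alternative that gave a value, over 3 to 11 regions; with genes not widened, and in lists of equal length, no such region was left. An absent peak is a call at the authors' threshold, and the lists hold no signal below it.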
